A study of Mus musculus with 8 samples.

Results

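The 9 Pax genes (Pax1 to Pax9) encode the paired box transcription factors, and the Polycomb mark H3K27me3 was measured over them in female mouse neural stem cell lines with and without Smchd1. They were chosen by name, and all 9 were found among 34614 annotated protein-coding and lncRNA genes of mm10. H3K27me3 was profiled by chromatin immunoprecipitation and sequencing (ChIP-seq) in 2 del/del and 2 del/fl libraries, each with its own whole-cell extract (WCE) library, which made 8 samples. The lines were derived from E14.5 embryos that were Smchd1 del/fl, and they were of a C57BL/6, 129 and Castaneus mix. For del/del, cells were transduced with the retrovirus MSCV-Cre-puro, put under puromycin from 24 hours after transduction, and harvested at 7 days. The del/fl cells were the untransduced part of the lines, and they also carried 1 deleted Smchd1 allele. A harvest at 7 days is given for both genotypes. Every library shared a maternal 129 X chromosome with the Xist deltaA allele and a paternal Castaneus X. Deletion of the conditional allele therefore came together with transduction and selection, and their parts cannot be told apart. Whether the libraries came from separate embryos is not given in the labels, and the spread behind each p-value may be technical.

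H3K27me3 is laid down by Polycomb repressive complex 2 and marks silent or poised genes of development, often as broad domains centred on CpG-rich promoters. Pax proteins bind DNA through the paired domain and direct the formation of the neural tube, eye, kidney, thyroid, pancreas, muscle, vertebrae and B cells. By sequence they form 4 groups: Pax1 and Pax9; Pax2, Pax5 and Pax8; Pax3 and Pax7; Pax4 and Pax6. Pax6 is active in the radial glia of the developing cortex, Pax3 and Pax7 in the dorsal neural tube, whereas Pax1, Pax4, Pax5 and Pax9 are best known from tissues outside the forebrain. SMCHD1 is a chromatin protein required for silencing on the inactive X chromosome and at some autosomal gene clusters.

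The promoters of 5 Pax genes are shown because they span the range of marking, from a start site inside a strong domain (Pax1, Pax5, Pax7) to one beside a short peak (Pax8) and one with a weak peak or none (the pair of Pax6 promoters). The sequences are RefSeq GRCm38.p6, 250 bases before to 50 bases after the start, written 5′ to 3′ on the gene's strand, with CpG dinucleotides in capitals.
Pax1, chr2:147364744-147365043, plus strand: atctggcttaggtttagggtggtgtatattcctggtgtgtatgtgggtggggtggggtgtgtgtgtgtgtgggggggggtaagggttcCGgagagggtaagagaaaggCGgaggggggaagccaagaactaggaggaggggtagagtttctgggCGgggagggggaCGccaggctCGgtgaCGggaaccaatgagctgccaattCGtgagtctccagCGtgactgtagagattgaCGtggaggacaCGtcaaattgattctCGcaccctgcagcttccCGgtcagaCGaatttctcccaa
Pax5, chr4:44710645-44710944, minus strand: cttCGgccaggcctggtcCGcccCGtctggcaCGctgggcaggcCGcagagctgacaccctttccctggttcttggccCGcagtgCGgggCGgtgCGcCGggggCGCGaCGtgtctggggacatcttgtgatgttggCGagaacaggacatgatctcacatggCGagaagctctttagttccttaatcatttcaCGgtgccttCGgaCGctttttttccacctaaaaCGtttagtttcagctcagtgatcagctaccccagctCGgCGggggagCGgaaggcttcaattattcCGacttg
Pax7, chr4:139832919-139833218, minus strand: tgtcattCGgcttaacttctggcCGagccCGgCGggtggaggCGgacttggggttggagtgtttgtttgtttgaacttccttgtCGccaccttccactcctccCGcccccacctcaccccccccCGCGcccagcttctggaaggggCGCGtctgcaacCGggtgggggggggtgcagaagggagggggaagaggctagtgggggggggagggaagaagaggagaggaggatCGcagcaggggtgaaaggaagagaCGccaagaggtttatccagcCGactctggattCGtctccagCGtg
Pax8, chr2:24475550-24475849, minus strand: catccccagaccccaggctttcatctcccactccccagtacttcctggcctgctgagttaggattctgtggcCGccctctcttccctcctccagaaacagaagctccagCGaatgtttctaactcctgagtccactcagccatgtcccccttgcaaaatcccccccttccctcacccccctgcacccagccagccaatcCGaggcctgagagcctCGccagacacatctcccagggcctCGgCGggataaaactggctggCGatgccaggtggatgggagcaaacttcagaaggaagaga
Pax6 first promoter, chr2:105668646-105668945, plus strand: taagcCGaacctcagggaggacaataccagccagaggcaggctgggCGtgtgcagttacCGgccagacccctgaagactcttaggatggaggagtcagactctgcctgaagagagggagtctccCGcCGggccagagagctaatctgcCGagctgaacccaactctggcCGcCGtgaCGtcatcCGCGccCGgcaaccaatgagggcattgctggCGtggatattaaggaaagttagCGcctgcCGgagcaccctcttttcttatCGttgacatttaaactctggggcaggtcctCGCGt
Pax6 second promoter, chr2:105682213-105682512, plus strand: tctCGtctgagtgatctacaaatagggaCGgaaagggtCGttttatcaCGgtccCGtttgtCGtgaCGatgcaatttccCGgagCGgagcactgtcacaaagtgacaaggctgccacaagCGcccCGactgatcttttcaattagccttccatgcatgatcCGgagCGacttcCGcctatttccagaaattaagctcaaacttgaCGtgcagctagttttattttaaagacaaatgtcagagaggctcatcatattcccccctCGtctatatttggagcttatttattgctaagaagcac

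The RefSeq table held 10 promoters of 7 Pax genes (Pax1, Pax2, Pax5, Pax6, Pax7, Pax8 and Pax9). In 7 of these 10 promoters, all 300 bases lay under an H3K27me3 peak in all 4 libraries: the promoters of Pax1, Pax5, Pax7 and Pax9 and the 3 promoters of Pax2. Among 31396 autosomal promoters of the table, 4.23% were fully covered in all 4 libraries and 90.9% were free of peaks in all 4. The first Pax6 promoter was covered over 68.7% (del/del 2) and 65.7% (del/fl 2) in the libraries numbered 2 and was free of peaks in those numbered 1. The second Pax6 promoter was free of peaks in every library, and the Pax8 promoter was touched only in del/fl 2, over 0.667% of its bases.

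Covered and uncovered Pax promoters overlapped in CpG content. Pax1 had 13 CpG, Pax5 23, Pax7 17 and Pax9 11 in 300 bases, against a median of 7 over 32851 promoters. The promoters of Pax6, with little or no cover, held 18 and 16, and that of Pax8 held 7. The promoters of Pax2, all fully covered, held 7, 23 and 30. The observed-to-expected CpG ratio is the CpG count corrected for the C and G content. It was 0.410 to 0.882 at the fully covered Pax promoters. At Pax6 it was 0.698 and 0.998 and at Pax8 0.288, with a median of 0.384 over the table. A few short motifs were searched on both strands. TATAAA was in none of the 10 Pax promoters (13.6% of all promoters hold it), and GGGCGG was in 6 of the 10 (35.7% of all promoters). A pair of TAAT cores on opposite strands with 3 bases between them was also in none (0.487% of all promoters).

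The libraries differed in list length more by replicate number than by genotype. The 4 lists held 32971 to 45566 peaks from 11793402 to 14064030 treatment tags, and peaks covered 1.34% and 1.79% of the autosomes in del/del 1 and 2 and 1.45% and 1.93% in del/fl 1 and 2. Peak lists hold no count per gene, and they cannot show the deleted Smchd1 exon, so that label was not checked here. Of 10 neural stem cell markers, 9 (Nes, Sox2, Vim, Fabp7, Slc1a3, Hes1, Hes5, Notch1 and Msi1) had no peak within 2.5 kb of either annotated end in any library. The same held for 13 of 24 markers of other cell types and for 73.6% of all genes. A peak in a bulk population does not tell a mark on few cells from a weak mark on all of them.

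Marking of the Pax genes ranged from complete to nearly absent, and libraries differed in their order only by swaps between neighbours. Gene-body cover, the percent of annotated bases under a peak, had means over 4 libraries of 100% at Pax9 and 98.5% at Pax1, then 82.2% at Pax3 and 73.0% at Pax2. It was 25.7% at Pax7 and 25.6% at Pax5, 9.04% at Pax8, 4.53% at Pax6 and 1.62% at Pax4. The ranges over libraries overlapped between neighbours in this order for Pax9 and Pax1, Pax3 and Pax2, Pax7 and Pax5, and Pax6 and Pax4, and were apart for the other 4 pairs of neighbours. At the gene ends, Pax1, Pax2 and Pax9 stood at 100%, followed by Pax5 at 60.4%, Pax3 at 55.2% and Pax7 at 49.6%, and then Pax8 at 21.2%, Pax4 at 16.1% and Pax6 at 14.1%. Only the steps from Pax9 to Pax5 and from Pax7 to Pax8 were apart over the 4 libraries. Members of a sequence group were alike for Pax1 and Pax9 and spread widely for Pax2, Pax5 and Pax8. For comparison, the median body cover over 8293 autosomal genes with a peak in at least 1 library was 3.02%, and 4.51% of those genes were fully covered in all 4 libraries.

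**Figure D1:**
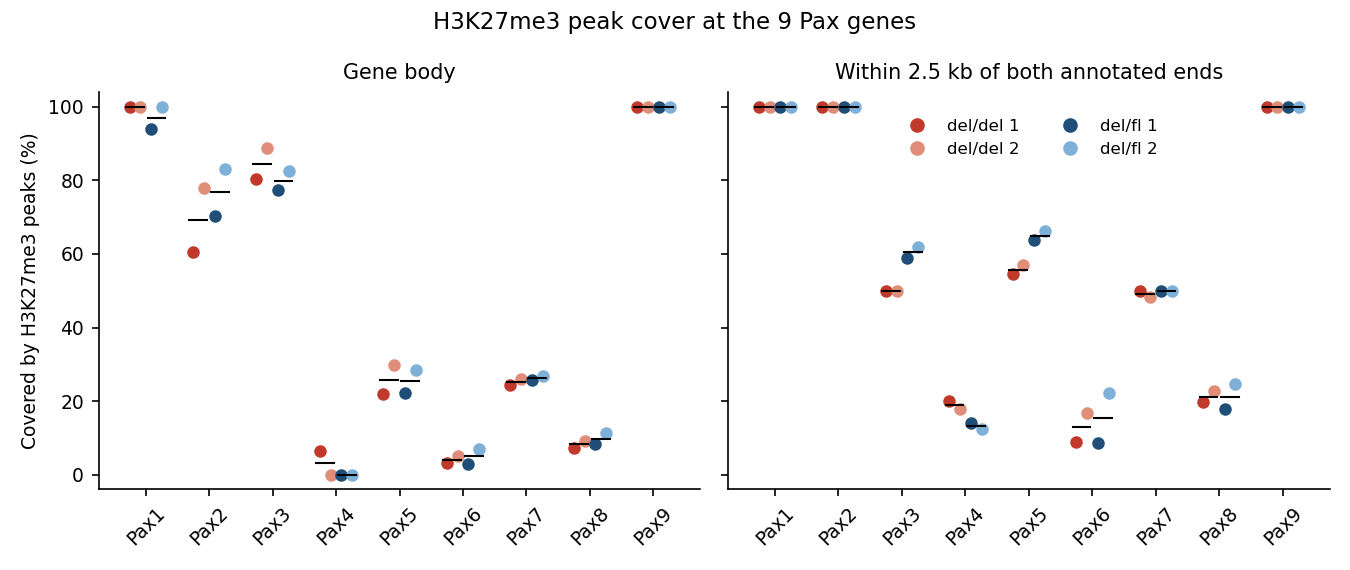
Percent of each Pax gene body (left) and of the windows within 2.5 kb of both annotated ends (right) covered by H3K27me3 peaks; each point is 1 library and each black bar is the mean of 2 libraries. Pax1, Pax2 and Pax9 sit at 100% at their ends in every library, and the genotypes are apart at the ends of Pax3, Pax4 and Pax5.

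Pax1 and Pax9, which act in the sclerotome, the pharyngeal pouches and the thymus, were marked from end to end. Pax1 (chr2:147361930-147375049) was covered over 100% of its body in del/del 1, del/del 2 and del/fl 2 and over 94.0% in del/fl 1, where a gap split the peak within the gene. Its strongest peak began 11.9 kb before the low-coordinate end in all 4 libraries, with a spread of 86 bp between them, while its other edge varied by 13959 bp. The pileup of that peak, the authors' value for stacked tags, was 28.8 and 26.1 in the del/del libraries, against 28.0 and 26.7 in the del/fl libraries. These pileups overlapped between genotypes. Per 1000000 treatment tags of the library they were 2.05 and 2.03 with the deletion, below the 2.11 and 2.27 of the del/fl libraries, with no test. Without del/fl 2, the Pax1 body difference went from 3.03 to 6.05 percentage points and passed the limma threshold (adjusted p = 1.52e-09). In that fit the lone del/fl library is assumed to vary like the del/del libraries, which were both at 100%.

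Pax9 (chr12:56691693-56712824) was covered over 100% of its body and both ends in every library. Its strongest peak spanned 40.4 to 43.9 kb and started 15.4 kb (del/del 1), 16.2 kb (del/del 2), 15.6 kb (del/fl 1) and 15.8 kb (del/fl 2) before the gene. Peaks of a library were joined across gaps of up to 3 kb into domains, and the longest domain at each gene was measured. It was 51.7 and 50.8 kb for del/del, compared with 50.9 and 58.3 kb for del/fl at Pax9. At Pax1 it was 56.3 and 50.01 kb in the del/del libraries, against 50.4 and 47.7 kb in the del/fl libraries. The genotypes overlapped at both genes (exact two-sided permutation p = 0.667 for each, where 2 against 2 libraries cannot give less than 0.333).

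**Figure D2:**
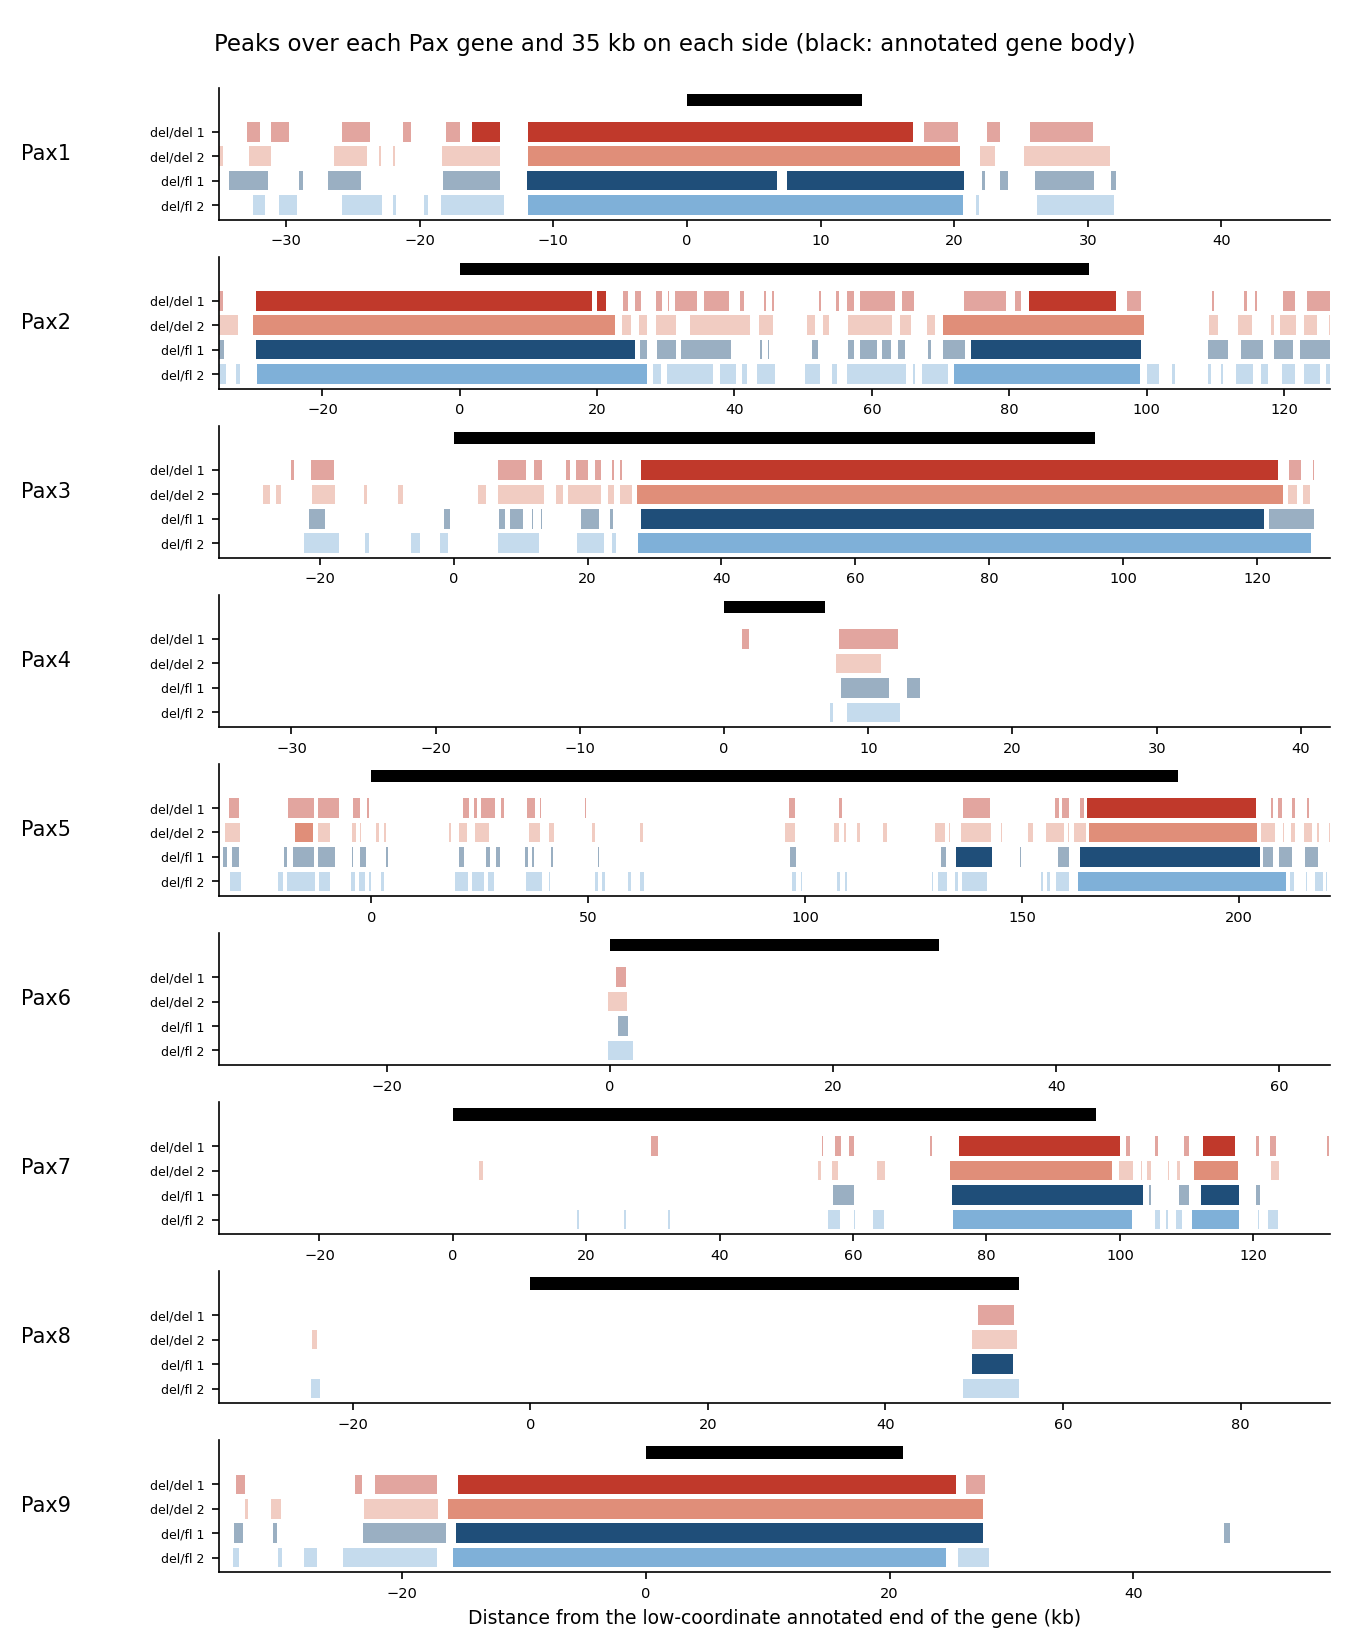
Deposited H3K27me3 peaks of each library over the 9 Pax genes and 35 kb on either side; the horizontal axis is distance in kb from the low-coordinate annotated end, the black bar is the gene body, full colours are peaks with −log10 q of at least 5 and pale colours are weaker peaks. Broad strong peaks recur at the same place in the 4 libraries at Pax1, Pax2, Pax3, Pax5, Pax7 and Pax9, while Pax4 and Pax6 have pale peaks only.

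Pax2, which acts in the midbrain-hindbrain boundary, optic stalk and kidney, was marked at both ends and less in between. The body of Pax2 (chr19:44746601-44838269) was covered over 60.5% and 78.0% for del/del, compared with 70.3% and 83.2% for del/fl. Both ends were fully covered in every library. In each genotype the library numbered 2 was the higher, and the genotypes overlapped. The difference of −7.49 ± 9.61 points (SE) did not pass (limma, adjusted p = 0.76), and it was 1.24 points without del/del 1.

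The 5′ peak of Pax2 began 29.6, 30.1, 29.7 and 29.6 kb before the gene in del/del 1, del/del 2, del/fl 1 and del/fl 2. It reached 19.2 and 22.6 kb into the gene in the del/del libraries, against 25.5 and 27.3 kb in the del/fl libraries. Its inner edge thus lay further in the gene in both del/fl libraries. The share of autosomal peaks whose edges are apart in this way was not computed. A separate 3′ peak had a pileup of 23.2 and 15.6 for del/del, compared with 18.1 and 17.1 for del/fl, with lengths of 12.6, 29.2, 24.8 and 27.1 kb. That 3′ peak was shortest and had the highest pileup in del/del 1, and the genotypes overlapped in both values. The part of its length in its pileup was not tested. The longest joined domain measured 75.4 and 82.7 kb in the del/del libraries, against 69.3 and 196.6 kb in the del/fl libraries. In del/fl 2 it began 150.8 kb before the gene, against 29.6 to 37.2 kb in the other libraries, and without that library the domain difference turned from −53.9 to 9.78 kb.

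Pax5, the B cell lineage factor that also acts at the midbrain-hindbrain boundary, was marked at its start and only in patches over the rest of the gene. Its body (chr4:44524748-44710694) was covered over 21.9% and 29.7% for del/del, compared with 22.3% and 28.4% for del/fl, again higher in the libraries numbered 2. The window around the start was covered over 100% in all 4 libraries. The peak over it was 38.9 and 38.8 kb long for del/del, compared with 41.4 and 48.0 kb for del/fl. Both del/del peaks were the shorter (exact two-sided permutation p = 0.333, the smallest that 2 against 2 libraries allow). The pileup of this peak was 22.7 and 22.7 in the del/del libraries, against 22.1 and 20.5 in the del/fl libraries. The window around the 3′ end was covered over 9.14% and 13.9% for del/del, compared with 27.4% and 32.5% for del/fl. The genotypes did not overlap there, and the peaks at that end were short, with a pileup of at most 9.19. With both ends together, cover was 54.6% and 57.0% in the del/del libraries, against 63.7% and 66.3% in the del/fl libraries. That is a difference of −9.22 ± 1.80 points (SE), which did not pass (limma, adjusted p = 0.344). It was 0.40 points in windows of 1 kb, and with only peaks of −log10 q of at least 5, cover was 50% in all 4 libraries.

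Pax8, needed for the thyroid and kidney, carried 1 short peak inside its 5′ part. Its body (chr2:24420551-24475599) was covered over 7.36% and 9.25% for del/del, compared with 8.23% and 11.3% for del/fl. The peak was 4.05, 5.09, 4.53 and 6.23 kb long in del/del 1, del/del 2, del/fl 1 and del/fl 2, and it stopped inside the gene, 525, 239, 719 and 48 bp short of the annotated start. Its start window was covered over 39.5% and 45.2% in the del/del libraries, against 35.6% and 49.1% in the del/fl libraries, with no peak at the 3′ end in any library. The genotypes overlapped in each of these values. Its pileup was 10.3 and 8.54 for del/del, compared with 10.8 and 8.61 for del/fl, between the strong Pax domains and the weak peaks of Pax4 and Pax6. Only in del/fl 1 did it reach a −log10 q of 5.

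Pax3, a factor of the dorsal neural tube, neural crest and muscle precursors, had the longest single peak of the family. Its body (chr1:78101267-78197136) was covered over 80.4% and 88.7% in the del/del libraries, against 77.2% and 82.5% in the del/fl libraries, and the genotypes overlapped (limma, adjusted p = 0.664). The peak ran from inside the gene across the high-coordinate end over 95.1 and 96.4 kb for del/del, compared with 93.0 and 100.6 kb for del/fl. Its inner edge lay 28.0, 27.5, 28.0 and 27.5 kb from the low-coordinate end in del/del 1, del/del 2, del/fl 1 and del/fl 2, a spread of 594 bp. The joined domain measured 111.9 and 124.3 kb in the del/del libraries, against 106.1 and 100.6 kb in the del/fl libraries. By length it ranked 10, 11, 11 and 16 among the autosomal domains of those lists. Both del/del domains were the longer, by 14.7 kb on average (exact two-sided permutation p = 0.333, the smallest that 2 against 2 libraries allow). The difference was −1.02 kb without joining and −31.0 kb with joining across 10 kb.

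At the ends of Pax3 the genotypes were apart. The low-coordinate end had no peak in either del/del library and was covered over 17.9% in del/fl 1 and 23.8% in del/fl 2, while the high-coordinate end was fully covered in all 4. Cover of both ends together was 50% and 50% for del/del, compared with 58.9% and 61.9% for del/fl. The difference of −10.4 ± 1.62 points (SE) did not pass (limma, adjusted p = 0.292). It rested on 1 weak peak per del/fl library, 0.894 kb long with a pileup of 6.86 in del/fl 1 and 1.19 kb long with a pileup of 5.97 in del/fl 2. Neither peak reached a −log10 q of 5, and at that threshold cover was 50% in every library. Without del/fl 1 the difference was −11.9 points and passed (limma, adjusted p = 0.0316), with the lone del/fl library assumed to vary like the del/del libraries, which were both at 50%. With windows of 5 kb it was −2.03 points.

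Pax7, which marks muscle satellite cells and the dorsal neural tube, was covered at its start, with a few short weak peaks over the rest. Its body (chr4:139737059-139833530) was covered over 24.5% and 26.0% in the del/del libraries, against 25.7% and 26.8% in the del/fl libraries, the least spread of any partly covered Pax gene (SD 0.948 points over 4 libraries). The start window was covered over 100% in 3 libraries and 96.7% in del/del 2, and the 3′ end had no peak in any library. The covering peak was 24.0 and 24.3 kb long for del/del, compared with 28.6 and 26.8 kb for del/fl. Both del/fl peaks were the longer (exact two-sided permutation p = 0.333, the smallest that 2 against 2 libraries allow). The joined domain did not keep that order, at 25.6 and 43.2 kb in the del/del libraries, against 29.8 and 26.8 kb in the del/fl libraries. Pax7 and Pax3 thus had a peak across 1 end each, with the other end bare or nearly so.

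Pax4 and Pax6 had the least marking of the family. Pax6, which drives eye, cortex and pancreas development, had a single short peak at its first start (chr2:105668896-105698410). The peak was 0.901 and 1.67 kb long for del/del, compared with 0.87 and 2.21 kb for del/fl, and body cover was 3.05%, 5.13%, 2.95% and 7.00% in the same order. Both libraries numbered 2 were above both numbered 1, and their peaks reached 156 and 147 bp upstream of the start, whereas those numbered 1 began 551 and 714 bp inside the gene. The lists numbered 2 were also longer, with 26327 and 26637 autosomal peaks against 17102 and 17564; the part of list length in the Pax6 values was not tested. Its pileup was 6.61 and 5.76 in the del/del libraries, against 6.00 and 6.45 in the del/fl libraries. The median autosomal peak of the same lists stood at 7.17, 5.93, 7.13 and 5.92, so the Pax6 peak was below it in 3 libraries and above it in del/fl 2. End cover was 9.01%, 16.7%, 8.70% and 22.1% in that order, all of it at the start (limma, adjusted p = 0.905).

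Pax4, a factor of pancreatic beta and delta cells, had almost no peak in its body (chr6:28442334-28449340), with 6.49% in del/del 1 and 0% in the other 3 libraries. Near it lay a peak beyond the high-coordinate end, 4.10 and 3.17 kb long for del/del, compared with 3.36 and 3.72 kb for del/fl, with a pileup of 7.65, 6.48, 7.89 and 7.49. End cover was 19.98% and 17.8% in the del/del libraries, against 14.1% and 12.4% in the del/fl libraries. Both del/del libraries were above both del/fl, by 5.59 ± 1.56 points (SE), which did not pass (limma, adjusted p = 0.478). The joined domain went the other way, at 4.10 and 3.17 kb for del/del, compared with 5.50 and 4.90 kb for del/fl. That order gave an exact two-sided permutation p of 0.333, the smallest that 2 against 2 libraries allow. Without joining, the domain difference was 0.0945 kb. No peak at Pax4 or Pax6 reached a −log10 q of 5 in any library. In windows of 1 kb the Pax4 difference was 1.07 points.

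No Pax gene differed between genotypes past the threshold. In gene bodies, limma with Benjamini-Hochberg adjustment called 0 of 9 Pax genes and 0 of 9336 genes tested in either direction (0% called higher and 0% called lower), with a smallest adjusted p of 0.0728. At gene ends it called 0 of 9 and 0 of 9136 (0% higher and 0% lower), with a smallest adjusted p of 0.133. All 9 Pax genes had a peak in some library and so were tested, with adjusted p from 0.657 to 1 in bodies and from 0.292 to 1 at ends. At an unadjusted p under 0.05, 0 of 9 Pax bodies and 907 genes in all stood in bodies, and 3 of 9 Pax genes (Pax3, Pax4, Pax5) and 900 genes in all stood at ends. Those shares of all genes were 9.71% and 9.85%, and 5.73% and 6.47% of autosomal genes.

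The count of 0 called genes depended on the libraries used. Without del/del 1 it became 1102 genes called higher and 45 lower in bodies, without del/fl 1 it became 199 and 1132, and without del/fl 2 it became 203 and 0, whereas without del/del 2 both stayed 0. At the ends the counts were 1065 and 54, 263 and 1295, and 296 and 1 in the same order, and 0 and 0 without del/del 2. Each such fit leaves 1 library in a group. Pax1 in bodies and Pax3 at ends, given above, were the only Pax genes to pass in any of these 8 fits.

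By overlap alone, with all listed peaks, the gene bodies of all 9 Pax genes had overlapping genotypes. Among autosomal genes tested, both del/del bodies lay above both del/fl in 6.74% and below in 14.8%. At the ends, 1 of 9 Pax genes (Pax4) lay above and 2 of 9 (Pax3, Pax5) below, where the shares over autosomal genes were 6.36% and 15.5%. Counts of 1 and 2 among 9 members are near these background shares. The median Pax difference was 0 points in bodies and 0 points at ends, beside −0.20 and −0.96 points over autosomal genes.

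**Figure D3:**
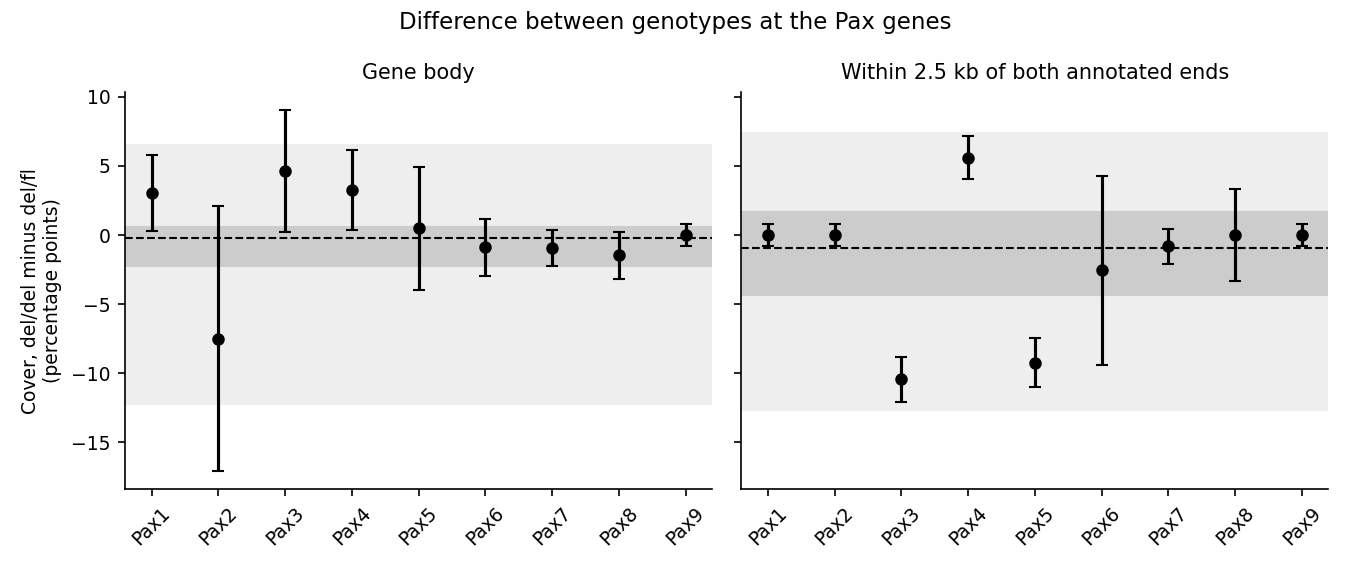
Difference in H3K27me3 cover at each Pax gene, del/del mean minus del/fl mean in percentage points, with bars of 1 standard error from limma; the dark and pale bands hold the central 50% (25th to 75th percentile) and 90% (5th to 95th percentile) of autosomal genes tested, and the dashed line is their median. All 9 Pax genes lie within the pale band in both measures.

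Base by base, little of the Pax genes was covered in both libraries of 1 genotype and in neither of the other. Of the 640.8 kb of the 9 genes with 2.5 kb on each side, 35.8% lay under a peak in all 4 libraries and 46.4% in none. The remaining bases lay under a peak in some libraries but not in all. Only 3.00 kb (0.468% of the 640.8 kb) were covered in both del/del libraries and neither del/fl, and 5.61 kb (0.876%) the other way round. Of these 5.61 kb, Pax5 held 2.58 kb and Pax2 held 2.35 kb. Pax1, Pax8 and Pax9 had no base specific to either genotype in both of its libraries.

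Most Pax genes, 6 of 9, carried some of the strongest peaks of each list, and the others did not. The strongest peak stood at or above the 98.2 percentile of autosomal pileups in every library at Pax1, Pax2, Pax3, Pax5, Pax7 and Pax9. The authors' fold enrichment of these peaks over local background was 8.74 to 11.9. Each was the highest of all peaks at its gene, ranked among single autosomal peaks. There were 12 to 19 peaks at Pax2 and 15 to 25 at Pax5, but 1 to 2 at Pax1 and 1 at Pax9. The strongest peak stood between 89.8 and 91.5 at Pax8, between 63.5 and 85.2 at Pax4, and between 0 and 66.8 at Pax6, with fold enrichments of 4.07 to 4.90, 3.18 to 3.82 and 2.90 to 3.36. Pileup depends on the tags behind a list, so genes are ranked by it within a list only. Scaled to 1000000 treatment tags, as a description with no test, both del/del libraries were below both del/fl at Pax1, Pax4 and Pax9. Pax4 had 0.544 and 0.506 against 0.594 and 0.635, and Pax9 had 1.56 and 1.61 against 1.71 and 1.85. The genotypes overlapped at the other 6. The share of autosomal peaks apart in this way was not computed, so no shift particular to the Pax genes is read from these values. Body cover and pileup did not rank the genes alike: Pax7 and Pax5 had about 25% of the body covered and pileups of 24.8 to 27.9 and 20.5 to 22.7, whereas Pax9, fully covered, had 20.7 to 22.7. The peaks behind these pileups also differed in length, with 24.04 to 28.6 kb at Pax7 and 40.45 to 43.85 kb at Pax9. The part of peak length in the pileup was not tested.

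**Figure D4:**
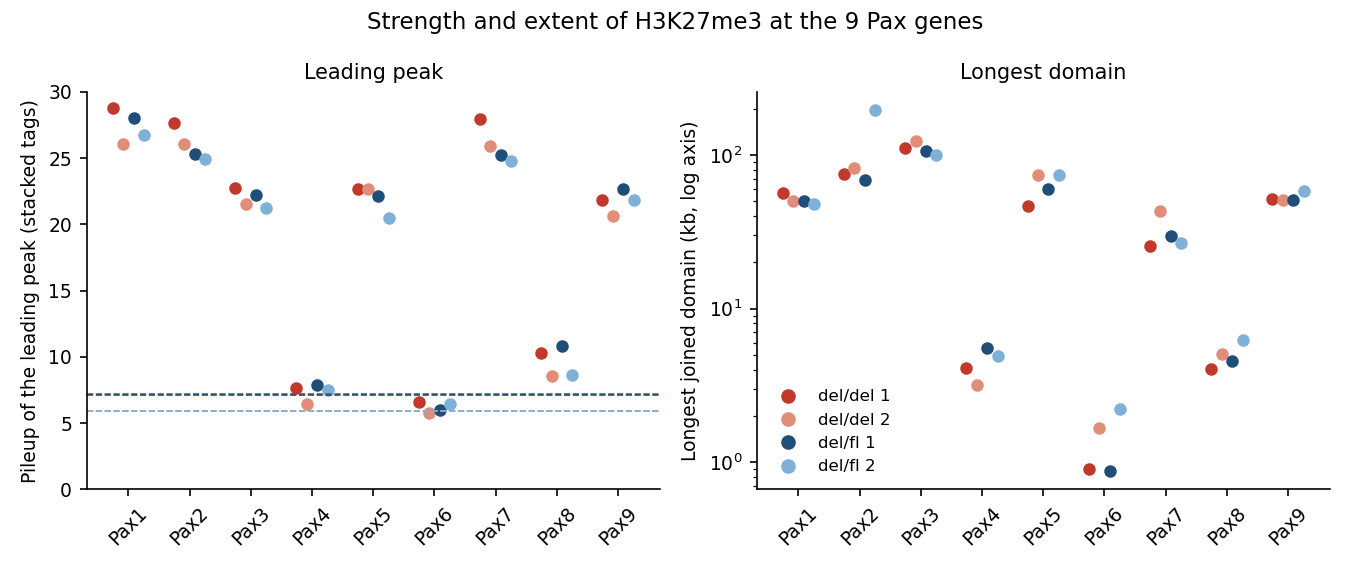
Pileup of the strongest H3K27me3 peak at each Pax gene (left, linear axis, stacked tags; dashed lines are the median autosomal peak of each list) and length of the longest joined domain (right, kb, log axis); each point is 1 library. Pax4, Pax6 and Pax8 are lowest in both panels, and del/fl 2 stands apart at Pax2 with 196.6 kb.

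Genes beside the Pax genes ranged from fully covered to bare. At Pax1, the overlapping lncRNA AI646519 was fully covered in all 4 libraries, whereas Nkx2-2os, 30.2 kb away, had 2.91% to 4.60% of its body covered. The lncRNA genes Gm35610, 3.89 kb from Pax2, and Gm41854, 71.7 kb from it, were fully covered. Also within the long Pax2 domain of del/fl 2, Gm35460 was covered at its ends over 61.2% and 67.9% with the deletion and 81.4% and 97.5% without it (limma, adjusted p = 0.53). Gm26644 had 68.3% to 86.1% of its body covered, while Slf2 on the other side had no cover for del/del, compared with 2.98% and 0.812% for del/fl. Gm33152 and the protein-coding Gm2102 lay inside the Pax3 peak and were fully covered. Around Pax9, Gm15524 and Gm46352 were fully covered, and Slc25a21, which overlaps the 3′ end of Pax9 and encodes a mitochondrial carrier, was covered over 3.27% and 3.52% in the del/del libraries, against 4.60% and 5.46% in the del/fl libraries. On its low-coordinate side, Gm26973, 63.9 kb away, was covered over 58.7% and 67.2% with the deletion and 46.6% and 55.0% without it (limma, adjusted p = 0.657). The domain of Pax9 thus took in the end of Slc25a21 and left most of that long gene bare.

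Several other neighbours were free of peaks. Both neighbours of Pax4, Fscn3 and Snd1, had no peak in body or ends in any library. Neither did Elp4 and Paupar beside Pax6, Gm42334 beside Pax7, Gm13415 within Pax8, Melk beside Pax5, Gm33030 beside Pax3 or Gm30001 beside Pax9. Within Pax5, the lncRNA 5730488B01Rik was fully covered and Gm12462 had 50.4% to 74.5% of its body covered. Psd4 beside Pax8 had 3.25% and 3.38% for del/del, compared with 9.62% and 5.44% for del/fl (limma, adjusted p = 0.657). Gm39956, Zcchc7, Pax6os1, Immp1l, Gm1667 and Gm39769 had at most 5.6% of the body covered in any library. The lncRNA Gm46873, which overlaps the start of Pax7, was covered over 46.7% and 53.7% for del/del, compared with 65.1% and 64.5% for del/fl. Both del/del libraries were lower there, and the difference of −14.6 ± 3.28 points (SE) did not pass (limma, adjusted p = 0.411). This lncRNA reaches away from Pax7 on the side where the Pax7 peak ran 3.48 and 2.34 kb beyond the gene with the deletion, less than the 7.02 and 5.38 kb of the del/fl libraries.

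For each Pax gene with a mean gene-end cover between 5% and 95% (Pax3 to Pax8), the 2 protein-coding autosomal genes with the nearest profile were found by Euclidean distance over the 8 cover values (body and ends in 4 libraries). Pax7 was nearest to Lingo1 (4.02 points) and Iqank1 (4.84), and Pax8 to Gm3317 (3.40) and Smad6 (4.48). Pax6 was nearest to Gm3667 (4.60) and Tgm2 (4.94), and Pax4 to Fbxo25 (7.39) and Tmtc1 (7.65). The nearest to Pax3 were Sfrp5 (12.8) and Ccdc87 (15.7), and to Pax5 Scn2b (13.4) and Tbx21 (14.3). Of these 6 genes, Pax3 and Pax5 had the least close neighbours. These distances describe cover in the same 4 lists and share their depth.

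A list of 65 genes that work with or beside Pax factors was read in the same way at gene ends. Of these, 54 had a peak and were tested, 0 passed in either direction (0% of all genes did), 26 were fully covered in all 4 libraries and 11 had no cover in any. The median cover of the 54 genes tested was 96.2%, against 7.03% over autosomal genes tested, and over all 65 the median was 80.3% and the median difference 0 points. The genotypes were apart at 10 genes, with del/del higher at 4 and lower at 6 of the 54, near the shares of 6.36% and 15.5% over autosomal genes. Dach2, among the 4, is on the X chromosome, which those shares leave out.

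By role, median cover at the ends was 100% for the neural tube patterning genes and for those of the midbrain and hindbrain, 28.3% for the B cell genes and 11.9% for the cofactors, with no test between roles. Of 10 neural tube patterning genes, 7 were fully covered (Nkx6-1, Dbx1, Irx3, Gsx1, Gsx2, Msx1 and Msx2), and Olig2 and Dbx2 had no peak. At the midbrain and hindbrain, where Pax2 and Pax5 act, En1, En2, Gbx2 and Otx2 were fully covered. Among the cofactor genes, which work with Pax proteins in eye, ear and kidney, Eya1, Eya3, Dach1 and Six5 had no peak at their ends. The others of the list at 0 in every library were Emx2, Foxn1, Mitf, Myf5 and Cd79a.

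The lowest differences in the list were at Fgf8, Myod1, Mafa and Eya2. Fgf8, the signal of the midbrain-hindbrain boundary, was covered over 34.8% and 45.3% in the del/del libraries, against 60.9% and 61.0% in the del/fl libraries (−20.8 ± 4.68 points SE; limma, adjusted p = 0.399). Myod1, a driver of muscle, had 55.2% and 37.0% against 59.9% and 61.5%. Mafa had 65.6% and 65.5% against 67.1% and 89.5%, and Eya2 had 41.5% and 41.8% against 50% and 48.7%. In these 4 genes both del/del libraries were lower.

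The highest differences were at Dach2, Neurog3, Blk and Wt1. Dach2 is on the X chromosome and was covered over 30.6% and 54.0% for del/del, compared with 0% and 12.5% for del/fl (36.1 ± 11.6 points SE; limma, adjusted p = 0.555). At an unadjusted p under 0.05 (limma), 518 of 9136 genes tested at ends were higher in del/del, but only 143 of 8065 autosomal genes. Most of the higher genes thus lay off the autosomes. Neurog3, which acts ahead of Pax4 in endocrine cells of the pancreas, had 95.8% and 100% against 86.3% and 83.4% (adjusted p = 0.332). Blk had 59.6% and 78.4% against 59.4% and 57.7%, and Wt1 had 51.9% and 68.6% against 50% and 50%. Both del/del libraries were higher at all 4, and none passed.

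**Figure D5:**
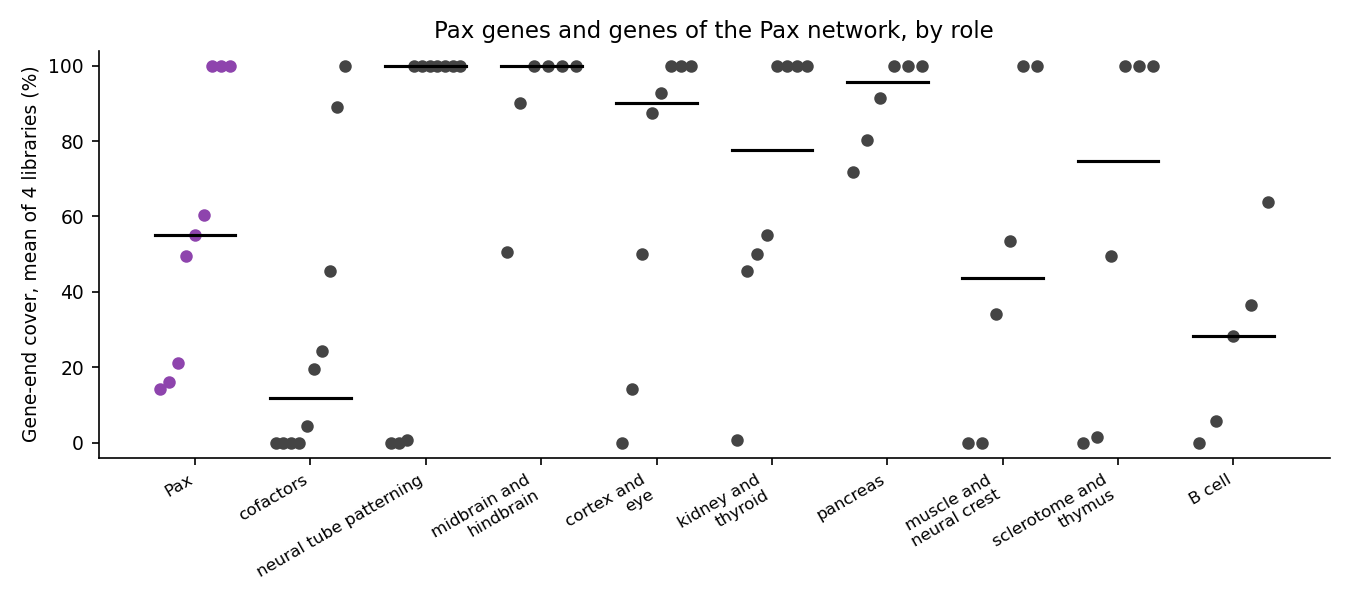
Percent of the windows within 2.5 kb of both annotated ends covered by H3K27me3 peaks, mean of 4 libraries, for the Pax genes (purple) and for genes of the Pax network by role (grey); each point is 1 gene and each bar is the median of its role. The neural tube patterning and the midbrain and hindbrain genes have medians of 100%, and the cofactors a median of 11.9%.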

How the data were processed

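H3K27me3 peak lists of 4 libraries (2 del/del, 2 del/fl) were analysed, each called against its own whole-cell extract. Per the submitters' processing notes, bcl2fastq, Bowtie 0.12.9 and MACS2 2.1.0.20140616 were used on mm10. Per the file headers, peaks were called per library in broad mode at a q-value of 0.05, keeping 1 tag per position, with the larger of the treatment and control sets sampled down. Every list also holds weaker peaks, with a largest q between 0.0918 and 0.0983. Pileup, a signal that counts stacked tags, and fold enrichment, a ratio over local background, were deposited with every peak. Whether a pileup is the top or the mean of a broad peak was not checked here. Significance came as −log10 of the p-value and of the q-value, as deposited by the authors. Peak positions and lengths were taken as the authors listed them.

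Cover was computed with Python 3.11.15, numpy 2.4.6 and pandas 2.3.3 over RefSeq GRCm38.p6 genes (the mm10 build; no strand, so Pax3 and Pax4 ends are named by coordinate). Genes with a peak in at least 1 library were fitted with limma 3.58.1 in R 4.3.3 (trend, robust, Benjamini-Hochberg over all genes, threshold 0.05). Domain lengths were compared by exact permutation (scipy 1.17.1), and figures drawn with matplotlib 3.10.9. The code was tested on simulated data. Named genes were all Pax genes, the nearest gene on each side and genes inside a Pax domain, the 4 highest and 4 lowest list genes and those at 0, and the 2 nearest profiles. The Pax genes and all lists were chosen with earlier results of these data known. Alternatives were stricter, equal-length or joined peaks, other windows, filters and scales, each library left out, and a replicate block. Lines were split before transduction, and del/del and del/fl libraries may derive from a common line. Their pairing is not given in the sources used here. A gene of the list is not reported here.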

Additional observations from a re-analysis of the deposited data

How the results depend on the processing

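All values below are del/del minus del/fl. Counts of called genes, 0 in each direction as reported, moved most. In bodies they became 66 higher and 29 lower with only peaks of −log10 q of at least 5, 34 and 13 with peaks joined across 3 kb, and 5, 5 and 12 higher with lists of equal length, a mean cover of at least 10% and no variance trend. Leaving out 1 library gave 0 to 1102 higher and 0 to 1132 lower. At ends they became 64 and 47 with stricter peaks, 17 and 15 with joined peaks, 14 and 3 with a mean cover of at least 10%, 202 and 20 after division by autosomal cover, 14 and 7 in 1-kb windows and 93 higher in 5-kb windows. Leaving out 1 library gave 0 to 1065 higher and 0 to 1295 lower. The median Pax difference at ends moved from 0 to 3.30 points after division by autosomal cover and to −2.02 in 5-kb windows. In bodies that division took the median from 0 to 2.40 points. It also set the difference at the fully covered ends of Pax1, Pax2 and Pax9 to 8.10 points.

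Of 102 alternative values for single Pax bodies, 10 changed sign and 1 passed the threshold, and of 124 at ends 10 changed sign and 1 passed. The cause was not tested. In bodies, Pax2 was 2.03 points with joined peaks, Pax5 −3.36 with stricter peaks, Pax6 0.591 with lists of equal length and Pax7 1.06 after division. Leaving out 1 library gave −16.2 to 1.24 at Pax2, −3.40 to 4.40 at Pax5, −2.91 to 1.14 at Pax6 and −3.01 to 0.0727 at Pax8. At ends, Pax5 was 0.40 and Pax6 2.15 in 1-kb windows, Pax6 1.79 with lists of equal length, Pax7 3.30 after division, and Pax8 −8.91 with stricter peaks and −1.06 in 5-kb windows. Leaving out 1 library gave −9.27 to 4.15 at Pax6 and −3.34 to 3.37 at Pax8. Of 63 domain differences, 19 changed sign. Without joining, Pax3 was −1.02 kb, Pax4 0.0945, Pax7 −3.53 and Pax9 0.497, and stricter peaks gave −1.02, −3.53 and 0.497 at Pax3, Pax7 and Pax9. Joining across 10 kb gave −3.13 at Pax1, −31.0 at Pax3, 1.79 at Pax4 and 36.5 at Pax9. Leaving out 1 library gave −117.6 to 9.78 kb at Pax2, −21.1 to 6.69 at Pax5, −0.927 to 0.415 at Pax6, −2.71 to 14.9 at Pax7, −1.66 to 0.04 at Pax8 and −7.09 to 0.288 at Pax9.

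The labels give both genotypes the numbers 1 and 2 without saying that a number marks a shared line. Deviations of same-numbered libraries correlated weakly over autosomal genes (0.122 in bodies, 0.111 at ends). With a replicate block the counts were again 0 in each direction, Pax3 at ends was −10.4 points (limma, adjusted p = 0.489), and no call on a Pax gene changed. A fit with no filter on cover could not be fitted, since most variances were 0. With 2 libraries per genotype and no counts per gene, precision is limited, and which limit matters most was not tested.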
